A study of Mus musculus with 12 samples.

Results

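The septins and anillin of myelin comprise 9 of the 35624 genes summed from the deposited transcripts: Sept2, Sept4, Sept5, Sept6, Sept7, Sept8, Sept9 and Sept11, under the older septin symbols, and Anln. They were taken by name, in a choice made with earlier results of these data known. All 9 passed the filter on low counts that left 13445 genes for testing, and 51 of their 86 transcripts passed the same filter among 31497 transcripts. The libraries come from mouse spinal cord at postnatal day 10, from cells with the tdTomato reporter and a large forward scatter, sorted from 1 mouse per library. Control mice were CnpCre:Rosa26-StopFlox-TdTomato, so they carry Cre recombinase and the reporter as both mutants do. RalA cKO mice, the single mutants, carried RalAflox/flox in addition, and RalAB cKO mice, the double mutants, carried RalAflox/flox and RalBflox/flox. Each of the 3 groups held 4 mice. Cre stood under the Cnp promoter, which is active in oligodendrocytes, and the sort gives cells that are enriched in oligodendrocytes and not pure. Sex is not among the labels used here.

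Septins are GTP-binding proteins that join end to end into filaments under membranes. A filament is built from subunits of separate subgroups, and members of 1 subgroup can take the same place: Sept2, Sept4 and Sept5 belong to the SEPT2 subgroup, Sept6, Sept8 and Sept11 to the SEPT6 subgroup, Sept9 to the SEPT3 subgroup, and Sept7 forms its own. In the central nervous system, filaments of SEPT2, SEPT4, SEPT7 and SEPT8 with the adaptor anillin lie along the innermost layer of mature myelin and are known to keep myelin from folding outward. Anillin also holds the contractile ring in dividing cells. RalA and RalB are small GTPases that act on exocytosis and membrane traffic.

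Sept8 transcripts with more than 1 coding end were read in these cells, and the ends are shown because the levels of the transcripts that carry them are set side by side further on. The lines below give, for each kind of Sept8 end, the last 30 coding bases that the transcripts share in lower case. The bases after the last exon junction, up to and including the stop codon, follow in capitals. They were read 5′ to 3′ from the GENCODE vM21 transcripts, on the plus strand of mouse chromosome 11, build GRCm38.
Sept8-207 and Sept8-203: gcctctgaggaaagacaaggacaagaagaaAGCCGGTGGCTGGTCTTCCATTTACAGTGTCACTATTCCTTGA
Sept8-201: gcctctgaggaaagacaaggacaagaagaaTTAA
Sept8-202: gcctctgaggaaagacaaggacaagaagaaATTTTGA
The first end lies in an exon that starts at position 53541475 and is short, with 330 bases after the stop codon in Sept8-207 and 381 in Sept8-203. The last exon of Sept8-201 starts at 53541210 and holds 2882 bases after the stop codon, and that of Sept8-202 starts at 53541030 and holds 3060. Sept8-207 and Sept8-203 differ from each other at the start of exon 4, where Sept8-207 holds 6 more coding bases, given in capitals between the shared bases.
Sept8-207: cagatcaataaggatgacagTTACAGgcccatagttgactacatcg
Sept8-203: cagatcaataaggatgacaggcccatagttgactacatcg
Sept4, the most abundant member, also has more than 1 coding end. The leading transcript Sept4-205 and the shorter Sept4-206 split at the same junction, which is not the last of either transcript. Capitals run here from that junction to the stop codon, and in Sept4-205 they cross a further junction. Both are shown because they held the largest shares of Sept4 among protein-coding transcripts.
Sept4-205: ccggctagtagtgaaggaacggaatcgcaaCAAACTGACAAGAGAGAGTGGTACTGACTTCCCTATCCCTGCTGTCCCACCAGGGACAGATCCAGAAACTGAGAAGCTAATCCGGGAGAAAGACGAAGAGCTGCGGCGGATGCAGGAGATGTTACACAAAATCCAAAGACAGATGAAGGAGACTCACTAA
Sept4-206: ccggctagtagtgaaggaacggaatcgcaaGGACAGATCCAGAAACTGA

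The libraries held between 10928206 and 15440437 estimated counts. The targeted genes were read first, in TPM, transcript abundances scaled to a common total that account for transcript length. Rala, floxed in both mutants, measured 37.2 ± 3.65 TPM in the controls (SD, n = 4), 21.8 ± 2.98 in the single mutants and 22.1 ± 4.33 in the double mutants, and the control range of 32.7 to 41.4 did not overlap either mutant range. On counts scaled between libraries the control range overlapped both mutant ranges. The differences on counts were -0.31 ± 0.15 (log2 ± SE, adjusted p = 0.236) and -0.39 ± 0.15 (adjusted p = 0.0830) and did not pass. Ralb did not separate RalAB cKO from RalA cKO, with a log2 difference of 0.04 ± 0.15 (adjusted p = 0.935). Which exons the loxP sites flank is not stated in the labels used here, and a gene total may include reads from transcripts that lack them. Within a gene, levels are given in CPM, estimated counts scaled to a common library total. Summed markers of oligodendrocytes reached 92425 to 120493 CPM in control, with overlapping ranges of 108401 to 126492 in RalA cKO and 94672 to 122028 in RalAB cKO; 1 of 10 markers was higher in RalA cKO, and 6 of 10 were lower and 0 higher in RalAB cKO, than in control. Summed microglial markers were 224 to 488 CPM in the controls, 148 to 237 in the single mutants and 998 to 1864 in the double mutants, with 9 of 10 markers higher in RalAB cKO than in control. Summed markers of oligodendrocyte precursors were 2617 to 3879, 2392 to 2916 and 2277 to 2843 CPM, with 3 of 7 lower in RalAB cKO. Summed astrocyte markers were 359 to 604, 325 to 492 and 276 to 306 CPM, with 6 of 8 lower in RalAB cKO. Summed neuronal markers were 24.8 to 94.4, 13.9 to 33.5 and 10.4 to 25.7 CPM, with 2 of 7 tested lower in RalAB cKO. The part of these cells in the results below was not tested, and in bulk libraries fewer cells of a type and less RNA per cell cannot be told apart.

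Levels are compared between genes in TPM. Sept4 stood first with 1206 ± 162 TPM (SD, n = 4), and its lowest control library lay above every control value of the other members. Sept5 at 341 ± 81.4, Sept8 at 283 ± 30.4 and Sept7 at 265 ± 50.8 TPM followed, and neighbours among these 3 overlapped in range. Sept2 at 133 ± 38.5 TPM lay below them without overlap with Sept7. Anln at 32.6 ± 9.19 and Sept9 at 31.6 ± 3.53 TPM overlapped each other, followed by Sept11 at 15.7 ± 3.79 and Sept6 at 2.95 ± 1.67 TPM. All 4 septins of the myelin filament were thus among the 5 most abundant members, and Sept5, a septin best known from nerve terminals, was the other.

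**Figure D1:**
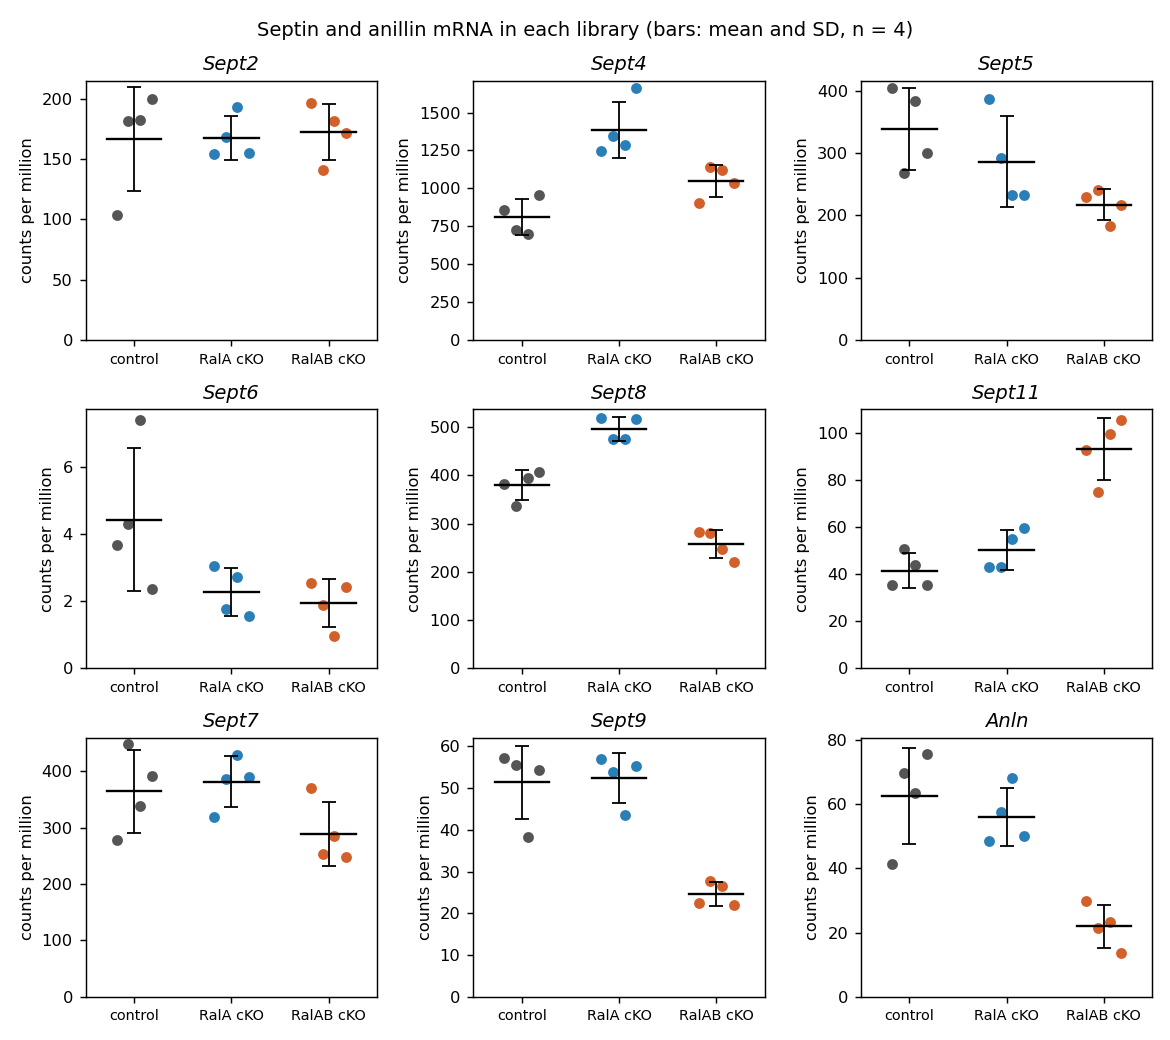
CPM (y axis, from 0, with TMM scaling) of the 9 genes in the 12 libraries, by group (x axis). Each point is 1 mouse, and bars give the group mean and SD. Sept8 separates into 3 levels that do not overlap, Sept11 is high and Sept9 and Anln are low in all 4 RalAB cKO libraries, and Sept4 is highest in the 4 RalA cKO libraries.

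In RalA cKO against control 1 of the 9 genes changed, Sept4, which was higher. The same threshold, an adjusted p under 0.05 in edgeR's quasi-likelihood test, called 2.78% of all tested genes in this comparison, 1.71% as higher and 1.07% as lower. In RalAB cKO against control 6 of 9 changed, with Sept11 higher and Anln, Sept9, Sept8, Sept5 and Sept6 lower, where 18.5% of all genes were called, 9.44% higher and 9.04% lower. Between the mutants 4 of 9 differed, Sept11 higher and Sept8, Sept9 and Anln lower in RalAB cKO, against 11.5% of all genes, 7.04% higher and 4.49% lower. The comparisons of each mutant with control share the 4 control libraries. The CPM ranges of the groups did not overlap for 11.4, 19.2 and 17.3% of all tested genes in the 3 comparisons.

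Sept4 belongs to the SEPT2 subgroup and is a core subunit of the myelin filament. It measured 860.5, 726, 700.0 and 959 CPM in the controls, 1249, 1347, 1288 and 1660.0 CPM in the single mutants, and 903, 1140.3, 1118 and 1033 CPM in the double mutants. Every RalA cKO library lay above every library of the other groups, while the RalAB cKO range overlapped the control range. Sept4 rose in RalA cKO by 0.77 ± 0.13 (log2 ± SE, adjusted p = 0.00564), a 1.71-fold change with a 95% interval of 0.50 to 1.05 on the log2 scale. In RalAB cKO it stood 0.37 ± 0.13 above control, which did not pass (adjusted p = 0.0568). Against RalA cKO its log2 change was -0.40 ± 0.13, which did not pass either (adjusted p = 0.0559) although the ranges did not overlap; 17.3% of all tested genes had ranges that did not overlap between the mutants. Both of these values lay close to the threshold: the first passed without control mouse 4 (adjusted p = 0.0314), without RalA cKO mouse 4 (0.0467) or without RalAB cKO mouse 1 (0.0297), and the second without control mouse 3 (0.0396) or mouse 4 (0.0494). Library totals alone, DESeq2 and limma-voom also put both past it (adjusted p from 0.0230 to 0.0438 and from 0.0132 to 0.0271), and a fit of only the groups compared did so for the second (0.0360).

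Sept2 and Sept5 are the other members of that subgroup. Sept2, a widely expressed subunit, measured 104, 181, 182 and 199.6 CPM in the controls, 154, 168, 193 and 155 CPM in the single mutants, and 197, 141, 181 and 172 CPM in the double mutants. The 3 ranges overlapped throughout, and control mouse 1 gave the lowest value. The log2 differences from control were 0.01 (95% interval -0.35 to 0.36) in RalA cKO and 0.05 (-0.30 to 0.41) in RalAB cKO, and the sign of each depended on the settings. Sept5 measured 404, 268, 385 and 301 CPM in the controls, 387, 293, 233 and 233 CPM in the single mutants, and 229, 240.3, 184 and 216 CPM in the double mutants. All RalAB cKO libraries lay below all controls, in a comparison where 19.2% of all genes had ranges that did not overlap. RalA cKO mice 1 and 2 lay inside the control range, and mice 3 and 4 lay below every control. Sept5 fell in RalAB cKO, with a log2 change of -0.64 ± 0.17 (adjusted p = 0.0146), and the call was lost without RalAB cKO mouse 3 (-0.57, adjusted p = 0.0537). In RalA cKO its value was -0.25 ± 0.17 (adjusted p = 0.390). Of 7 tested neuronal markers 2 were also lower in RalAB cKO, while the summed range of 10.4 to 25.7 CPM overlapped the control range of 24.8 to 94.4 CPM. Some precursor and astrocyte markers were lower there as well. The part of these cells in the Sept5 value was not tested.

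Sept8, the subunit of the SEPT6 subgroup in the myelin filament, measured 383, 337, 395 and 407 CPM in the controls, 519, 476, 474 and 517 CPM in the single mutants, and 284, 280.1, 247 and 220.4 CPM in the double mutants. The 3 groups formed 3 levels with no overlap, highest in RalA cKO and lowest in RalAB cKO. Sept8 fell in RalAB cKO against control, by a log2 change of -0.56 ± 0.10 (adjusted p = 0.00157), and lay lower than in RalA cKO by -0.95 ± 0.10 (adjusted p = 2.11e-05). The value above control in RalA cKO, 0.38 ± 0.10, did not pass (adjusted p = 0.0559), although its ranges did not overlap, as held for 11.4% of all genes. It was 0.62 and passed (adjusted p = 0.0147) when the mean transcript length of the gene in each library was taken into account, and it passed without RalAB cKO mouse 1 (adjusted p = 0.0406).

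Sept11, a second member of the SEPT6 subgroup that is widely expressed in neurons and glia, went the other way. It measured 35.5, 50.9, 44.0 and 35.6 CPM in the controls, 43.2, 43.1, 55.1 and 59.6 CPM in the single mutants, and 92.7, 74.9, 99.5 and 106 CPM in the double mutants. All 4 RalAB cKO libraries lay above all 8 others. Sept11 rose in RalAB cKO by 1.17 ± 0.15 against control, a 2.24-fold change (adjusted p = 8.61e-05), and by 0.89 ± 0.15 against RalA cKO (adjusted p = 0.000617). In RalA cKO it was 0.28 ± 0.15 above control, which did not pass (adjusted p = 0.278). These were also the libraries with the highest summed microglial markers, given above, whose part in the Sept11 value was not tested.

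As a description, with the ratio chosen after the values of both genes had been seen, Sept11 reached 0.0564 ± 0.0168 of the TPM of Sept8 in the controls (SD, n = 4), 0.0425 ± 0.00439 in the single mutants and 0.164 ± 0.0450 in the double mutants. Sept8 therefore still exceeded Sept11 in every library. The sum of the SEPT6 subgroup was 13.3 ± 0.772% of summed septin TPM in the controls (SD, n = 4), 14.5 ± 0.548% in the single mutants and 10.5 ± 0.898% in the double mutants.

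Sept6, which gives the subgroup its name, had the lowest counts of the 9 genes. It measured 3.67, 4.28, 7.38 and 2.36 CPM in the controls, 3.04, 1.77, 2.71 and 1.57 CPM in the single mutants, and 2.52, 1.88, 0.959 and 2.43 CPM in the double mutants. The lowest control library lay inside the range of both mutants. Its fall in RalAB cKO, a log2 change of -1.18 ± 0.38, passed narrowly (adjusted p = 0.0385), and it was lost without control mouse 2 (adjusted p = 0.0715) or mouse 3 (0.152) and without RalAB cKO mouse 2 (0.0885), mouse 3 (0.113) or mouse 4 (0.0594). In RalA cKO the value was -0.98 ± 0.38 (adjusted p = 0.144).

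Sept7, the only member of its subgroup and a subunit of nearly all septin filaments, measured 278, 448, 338 and 392 CPM in the controls, 319.5, 387, 428 and 390.0 CPM in the single mutants, and 371, 254, 285 and 248 CPM in the double mutants. All ranges overlapped, and RalAB cKO mouse 1 lay above the other 3 of its group. The log2 differences were 0.07 ± 0.15 in RalA cKO and -0.33 ± 0.16 in RalAB cKO against control (adjusted p = 0.824 and 0.153). The latter passed without control mouse 1 (-0.44, adjusted p = 0.0495) or without RalAB cKO mouse 1 (-0.48, adjusted p = 0.0265). Between the mutants Sept7 differed by -0.40 ± 0.16 (adjusted p = 0.122), which passed without RalAB cKO mouse 1 (-0.55, adjusted p = 0.0197).

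Sept9 belongs to the SEPT3 subgroup, and its protein binds actin and microtubules. It measured 57.2, 55.4, 38.4 and 54.4 CPM in the controls, 57.0, 53.8, 43.6 and 55.2 CPM in the single mutants, and 22.3, 27.7, 26.6 and 22.1 CPM in the double mutants. The 4 RalAB cKO libraries lay below all 8 others, and the other groups covered nearly the same range. Sept9 fell in RalAB cKO to 0.481-fold of control, a log2 change of -1.06 ± 0.14 (adjusted p = 0.000104), and differed from RalA cKO by -1.09 ± 0.14 (adjusted p = 6.54e-05). In RalA cKO it differed from control by 0.03 (95% interval -0.26 to 0.32).

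Anln encodes anillin, which binds septins, actin and RhoA. It measured 41.3, 69.7, 63.4 and 75.6 CPM in the controls, 48.4, 57.7, 68.1 and 50.1 CPM in the single mutants, and 29.8, 21.4, 23.3 and 13.5 CPM in the double mutants. All RalAB cKO libraries lay below all others. Anln fell in RalAB cKO to 0.352-fold of control, a log2 change of -1.50 ± 0.22 (adjusted p = 0.000390), the largest fall among the 9 genes, and differed from RalA cKO by -1.35 ± 0.22 (adjusted p = 0.000747). In RalA cKO its value was -0.16 ± 0.21 (adjusted p = 0.690).

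**Figure D2:**
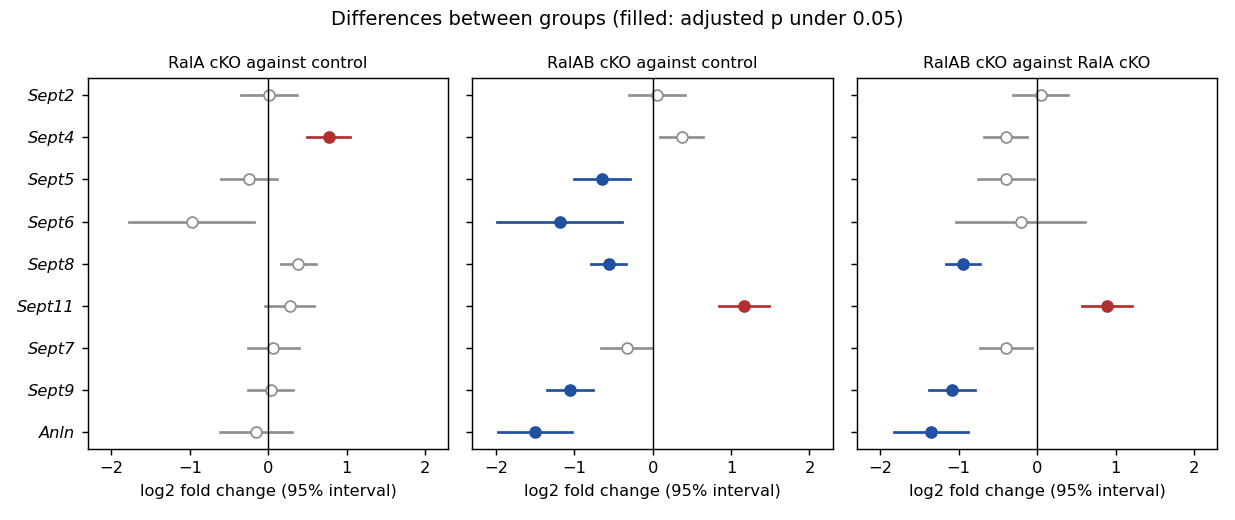
Log2 fold change (x axis) with its 95% interval for the 9 genes (y axis) in the 3 comparisons, from edgeR; filled points passed an adjusted p under 0.05, red for higher and blue for lower. Sept4 is the 1 filled point for RalA cKO against control, while 6 are filled for the double mutants against control and 4 where the mutants are compared.

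Anillin serves both cell division and myelin, so its values are set beside both kinds of gene. Of 15 genes of cytokinesis and mitosis, 10 were lower in RalAB cKO than in control and none higher, where 9.04% of all tested genes were lower. Their median log2 change was -1.15, against -0.01 over all tested genes. Among them Kif20a, a motor of the central spindle, changed by -1.22 ± 0.22 (adjusted p = 0.00142) and Aurkb, a mitotic kinase, by -1.37 ± 0.28 (adjusted p = 0.00304). In RalA cKO 1 of the 15 was lower, Kif20a with -1.03 ± 0.22 (adjusted p = 0.0230), and the median was -0.74. Between the mutants, where Anln differed by -1.35, none of the 15 passed, with a median of -0.41; Ccnb1 differed by -0.41 ± 0.24 (adjusted p = 0.353) and Cdk1 by -0.44 ± 0.29 (adjusted p = 0.412). Aurkb and Racgap1, a part of the central spindle, chosen after their values were seen, differed more, by -0.65 ± 0.28 (adjusted p = 0.171) and -0.51 ± 0.25 (adjusted p = 0.248).

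The myelin genes were grouped by name into lists. Where each protein lies in myelin was not measured, so the lists are not read as compartments. Of 8 genes listed under compact myelin, 4 were lower and 1 was higher in RalAB cKO than in control. Among all tested genes 9.04% were lower and 9.44% higher there. The median log2 change of the 8 was -0.30, against -0.01 over all tested genes. Mal, a raft protein of myelin, changed by -1.53 ± 0.18 (adjusted p = 4.17e-05), while Gjc3, a connexin, changed by 0.65 ± 0.15 (adjusted p = 0.00587). In RalA cKO 1 of the 8 passed, Opalin with 0.72 ± 0.13 (adjusted p = 0.00945), where 1.71% of all tested genes were higher. The median there was 0.02, against -0.02 over all tested genes. Between the mutants 3 were lower in RalAB cKO, among them Mal with -1.36 ± 0.18 (adjusted p = 8.32e-05). Of all tested genes 4.49% were lower in that comparison and 7.04% higher. The median of the 8 was -0.35, against -0.03 over all tested genes. Of 12 genes listed under the inner tongue, paranode and cytoplasmic channels, 2 were higher and 3 lower in RalAB cKO than in control. Their median log2 change was 0.08. Ermn, an actin-binding protein of the oligodendrocyte, changed by -1.05 ± 0.18 (adjusted p = 0.000794) and Gsn, which severs actin, by -1.11 ± 0.16 (adjusted p = 0.000204), while Nfasc, a cell adhesion protein of the paranode, changed by 0.43 ± 0.11 (adjusted p = 0.0100). Between the mutants 3 of the 12 were lower and 1 higher in RalAB cKO, with a median of -0.15. In RalA cKO against control none passed, and the median was 0.27. Mag and Cnp there stood 0.43 ± 0.16 (adjusted p = 0.137) and 0.40 ± 0.15 (adjusted p = 0.140) above control. Cntn1, an adhesion protein of the paranode chosen after its value was seen, had the smallest p of the list there and lay the other way, at -0.39 ± 0.13 (adjusted p = 0.0903).

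Of 19 tested genes among 20 that act on septins or anillin, 4 were higher in RalA cKO and none lower, where 1.71% of all tested genes were higher. Their median log2 change was 0.08, against -0.02 over all genes. Cdc42ep1, which belongs to a family that binds septins, rose by 0.63 ± 0.14 (adjusted p = 0.0284). The GTPases Rhoc and Rhob rose by 0.64 ± 0.15 (adjusted p = 0.0293) and 0.57 ± 0.14 (adjusted p = 0.0471), and the kinase Cdk5 by 0.54 ± 0.13 (adjusted p = 0.0306). None of the 19 passed in RalAB cKO against control, where Rhoa stood at 0.33 ± 0.12 (adjusted p = 0.0615) and Rtkn at 0.08 ± 0.14 (adjusted p = 0.754). Between the mutants Cdc42ep2 was lower in RalAB cKO by -0.77 ± 0.19 (adjusted p = 0.0115) and Pip5k1b higher by 0.67 ± 0.17 (adjusted p = 0.0172). Of 5 further septins 3 were tested, and 1 passed: Sept3, of the subgroup of Sept9, was lower in RalAB cKO than in control by -0.82 ± 0.19 (adjusted p = 0.00651).

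The 8 septins summed to 2278 ± 177 TPM in the controls (SD, n = 4), 2742 ± 138 in the single mutants and 2082 ± 158 in the double mutants. As a description, Sept4 made up 52.8 ± 4.03% of that sum in the controls (SD, n = 4), 62.4 ± 4.27% in the single mutants and 64.0 ± 4.40% in the double mutants. Its share was higher in each library of both mutants than in each control, and RalAB cKO mouse 1, at 57.4%, lay lowest in its group. The share of Sept8 was 12.4 ± 0.741%, 13.9 ± 0.518% and 8.98 ± 1.06%, and that of Sept9 1.39 ± 0.197%, 1.06 ± 0.168% and 0.691 ± 0.0795%. A share falls when another member rises, so these shares are not independent of each other.

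**Figure D3:**
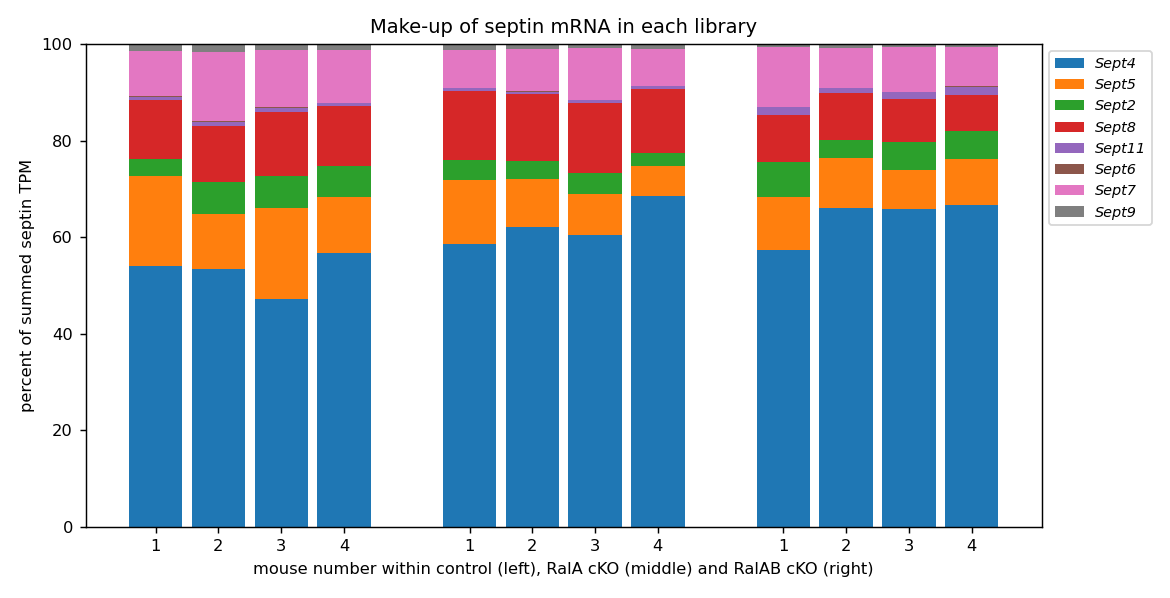
Stacked bars of the percent of summed septin TPM (y axis) taken by each of the 8 septins in each library (x axis, mouse number within group). Sept4 takes 47.2 to 56.7% in control, 58.7 to 68.5% in RalA cKO and 57.4 to 66.6% in RalAB cKO libraries, and the Sept8 band is narrowest in RalAB cKO.

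Across the 12 libraries the logarithms of CPM of some members moved together, which the differences between groups alone can produce. Sept8, Sept9 and Anln had Pearson's r of 0.85 (Sept8 with Sept9), 0.81 (Sept8 with Anln) and 0.82 (Sept9 with Anln), and Sept11 had r of -0.89 with Sept9. Sept4 had r of 0.38 with Sept8 and -0.09 with Anln. Among the 9826 genes averaging 5 CPM or more, the gene most like Anln was Rtkn2 (r = 0.98), followed by Omg and Mal, that most like Sept9 was Myo1e (r = 0.98), that most like Sept8 was Nkd1 (r = 0.96), that most like Sept11 was Whrn (r = 0.96), and that most like Sept4 was Slc9a3r2 (r = 0.98). Sept6, at its low level, was nearest to Incenp, Bub1b and Foxm1, genes of dividing cells (r = 0.95, 0.95 and 0.94). Sept5 was nearest to Galnt10 (r = 0.99), Sept7 to Dram2 (r = 0.98) and Sept2 to Mettl4 (r = 0.92).

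At the level of single transcripts, estimated counts of overlapping transcripts are split by the quantifier, and the error of that split is not in the files. The leading transcripts differed in their weight: Sept5-201, Sept7-202 and Sept11-201 held 71.6, 80.7 and 84.0% of their gene's TPM over the 12 libraries, Anln-201 65.0%, Sept8-207 53.9%, Sept2-216 50.2%, Sept4-205 49.8% and Sept6-202 43.5%. Of the member transcripts 1 passed in RalA cKO against control, where 0.117% of all tested transcripts did, 2 passed in RalAB cKO against control (1.68% of all) and 4 between the mutants (1.52% of all). Anln-201 changed by -1.53 ± 0.26 in RalAB cKO against control (adjusted p = 0.0133; 0.0506 without RalAB cKO mouse 2 and 0.0642 with the mouse number as a block), and Sept11-201 by 1.18 ± 0.17 (adjusted p = 0.00506). The second Anln transcript, Anln-202, went from 11.5 ± 5.30 TPM in control to 3.93 ± 1.46 in RalAB cKO (SD, n = 4), a log2 change of -1.44 ± 0.45 that did not pass (adjusted p = 0.157), and held 34.7 and 37.0% of Anln TPM. Against RalA cKO the leading transcripts changed by -1.36 (adjusted p = 0.0241) and 0.97 (adjusted p = 0.0146), and these calls were lost without some single libraries, with adjusted p up to 0.0810 for Anln-201 and 0.0639 for Sept11-201. For Sept9, Sept9-204 and Sept9-203 hold the same 1002 coding bases and differ in the first exon, and they held 56.8 and 38.1% of Sept9 TPM, but the split varied widely: Sept9-204 was 25.9 TPM in control mouse 4 and 0.00648 TPM in control mouse 3. Neither passed.

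The member transcript that passed in RalA cKO was Sept8-203. This transcript, with the short last exon shown above, measured 59.4, 74.2, 58.8 and 58.9 TPM in the controls, 101, 123, 105 and 123 TPM in the single mutants, and 48.8, 52.5, 44.8 and 34.9 TPM in the double mutants. Again there were 3 levels without overlap, but the share of all transcripts that separate so was not computed. In RalAB cKO against control Sept8-203 changed by -0.38, which did not pass (adjusted p = 0.227). Sept8-203 rose in RalA cKO by 1.01 ± 0.14 (adjusted p = 0.0342), a call that was lost in 8 of the 12 runs that left out 1 library, with adjusted p up to 0.103 (without control mouse 4). It differed between the mutants by -1.39 ± 0.14 (adjusted p = 0.00131), as did Sept8-207 by -1.16 ± 0.17 (adjusted p = 0.00698), and both of these held in all 12 runs that left out 1 library. In RalA cKO against control Sept8-207 stood at 0.71 and did not pass either (adjusted p = 0.163). The long-ended Sept8-201 and Sept8-202 stood at -0.23 ± 0.20 (adjusted p = 0.792) and -0.56 ± 0.30 (adjusted p = 0.562) there.

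Summed over the transcripts with the short last exon, a grouping chosen after the values had been seen and given as a description, the share of Sept8 TPM was 72.7, 72.4, 68.4 and 78.9% in the controls, 82.4, 86.6, 86.7 and 87.9% in the single mutants, and 72.9, 79.1, 81.6 and 76.1% in the double mutants. All RalA cKO libraries lay above all others. By estimated counts, which weigh long transcripts more, the means were 50.8 ± 6.19, 69.5 ± 4.20 and 56.7 ± 5.09% (SD, n = 4). The long-ended Sept8-201 and Sept8-202 together held 25.6 ± 4.56, 13.5 ± 2.38 and 21.2 ± 3.27% of TPM. A test of transcript usage did not pass for any Sept8 transcript, but on simulated counts this test missed most changes. The libraries also differed in the mean length of transcripts weighted by TPM, which was 1759 to 1800 bases in the controls, 1675 to 1771 in the single mutants and 1710 to 1804 in the double mutants. In RalA cKO against control the median log2 change was 0.04 over transcripts of 1500 to 2000 bases and -0.08 over those of 4000 to 5000 bases, the lengths of the short-ended and long-ended Sept8 transcripts. The part of transcript length in the Sept8 shares was not tested.

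**Figure D4:**
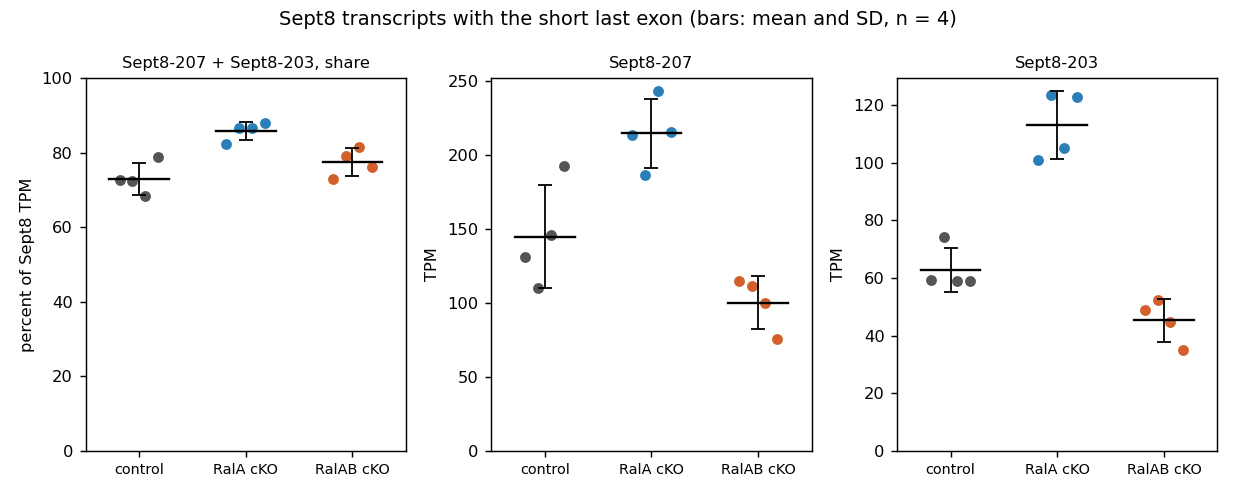
Percent of Sept8 TPM from Sept8-207 and Sept8-203 together (left) and the TPM of each (middle, right) in the 12 libraries, 1 point per mouse, by group (x axis), with mean and SD as bars. The share lies between 82.4 and 87.9% in RalA cKO and at or below 81.6% elsewhere, and the TPM of both transcripts is lower in RalAB cKO than in RalA cKO in every library.

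The usage test asks whether a transcript changed apart from the rest of its gene. It passed for no member transcript in RalA cKO (0.292% of all tested), for Sept4-211 in RalAB cKO against control (0.170% of all) and for Sept4-203 between the mutants (0.121% of all). Neither call is taken as a result here. Sept4-203 ranged from 0.00375 to 44.6 TPM within the control group. On simulated counts this test made more false calls than its threshold allows. A second test, limma on the log2 ratio of a transcript to the rest of its gene, gives each transcript its own spread. It passed for neither (adjusted p = 0.524 and 0.927) and for no other member transcript in any comparison. On simulated counts this second test missed small changes, so its lack of calls does not show that transcript usage was unchanged.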

How the data were processed

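Messenger RNA of 12 sorted cell samples was sequenced from stranded libraries, per the labels' protocols. The submitters' processing notes name Trimmomatic 0.36, kallisto 0.44 and build GRCm38.p6. The authors deposited estimated counts (expected counts) and TPM per transcript; no label used here says whether counting used strand. Transcripts were summed by gene symbol of GENCODE vM21: 121104 of 121843 matched, and the 739 unmatched held 0.219 to 0.277% of counts. Sept2 joins 2 gene identifiers. Gene and transcript sums were rounded and tested with edgeR 4.0.16 (TMM scaling, default low-count filter, robust quasi-likelihood F test, 12 libraries, 1 mean per group, Benjamini-Hochberg over all features, threshold 0.05). Transcript usage was tested with diffSpliceDGE. CPM are rounded counts over library totals after the filter, scaled by TMM. On simulated counts the gene test recovered most of the planted changes. The transcript test missed most small changes and recovered most large ones. The usage test missed most changes of either size and made too many false calls, so limma 3.58.1 on log2 ratios was added after that. The added limma test also missed small changes. DESeq2 1.42.0 and limma-voom served as alternatives. Mice are separate animals and library pairs differed beyond sampling noise. Mouse numbers did not pair libraries: correlations of deviations ran from -0.21 to 0.18. The members and lists were chosen with earlier results of these data known. Named in the text were all members, transcripts that passed or lead their gene, per list and comparison up to 4 genes with the smallest p among those past the threshold or, where none passed, the 2 with the highest mean TPM, and the genes most like each member. The values of 1 gene that this rule would name are not reported here.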

Additional observations from a re-analysis of the deposited data

Results flagged for a closer look

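Sept9 in control mouse 3, at 38.4 CPM, lay below the other 3 control libraries, which ran from 54.4 to 57.2 CPM. A gap of this size relative to the range is met by chance in about 1 of 20 groups of 4. All 9 members were scanned in each of the 3 groups, so a gap like this somewhere among them is not unusual. The fall of Sept9 in RalAB cKO kept its call without this library.

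Sept8 and Sept9 had opposite signs against control in the mutants. The direct comparison of RalAB cKO with RalA cKO gave -0.95 for Sept8 and -1.09 for Sept9 on the log2 scale, and both passed. The value of neither gene in RalA cKO against control passed, so for Sept9, at 0.03, the sign carries no weight.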

How the results depend on the processing

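The threshold calls of Sept4 in RalA cKO, of Anln, Sept11, Sept9 and Sept8 in the double mutants against control, and of the same 4 genes where the mutants were compared, held under all 10 other settings and all 12 runs that left out 1 library. The count of members called in RalA cKO was 1 and became 2, with Sept8 joining Sept4, with the DESeq2 test (2), limma-voom (2) and transcript length offsets (2), and 1 to 2 when 1 library was left out. In RalAB cKO against control it was 6, with 5 to 8 under other settings and 4 to 8 without 1 library, and between the mutants 4, with 4 to 6 and 4 to 5. Member transcripts called numbered 0 to 1, 1 to 3 and 2 to 4 in the 3 comparisons when 1 library was left out, and usage calls 0 to 1, 0 to 2 and 0 to 1; limma on the log2 ratio, chosen after seeing the data, gave 0 usage calls for the double mutants against control and 0 where the mutants were compared. The cause was not tested.

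The mouse numbers share only a number. With them as a replicate block, 1, 5 and 4 members were called in the 3 comparisons, Sept6 being lost, with 0 transcripts in RalA cKO, 2 in RalAB cKO against control and 2 where the mutants were compared. It ended the call of Sept8-203 in RalA cKO (adjusted p = 0.0909), of Anln-201 in both comparisons of RalAB cKO (0.0642 against control, 0.104 against RalA cKO) and of Sept11-201 against RalA cKO (0.0513), while Sept4-211 passed against control (0.0469).

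Values that changed sign passed in neither setting. Library totals alone moved the median of all genes in RalA cKO to -0.138 and gave -0.109 for Sept2, -0.0504 for Sept7 and -0.0799 for Sept9 there, and in RalAB cKO -0.0375 for Sept2 and -0.0151 for Rtkn. Limma-voom gave -0.103 for Sept2 and -0.00963 for Sept7 in RalA cKO and -0.0970 for Sept2 in RalAB cKO. Length offsets gave Sept2 -0.156 and -0.0528 in these comparisons, and Sept1 -0.352 between the mutants. Fitting only the groups compared gave Sept2 -0.00462 in RalA cKO. With Y-linked expression as covariate Anln in RalA cKO was 0.0945, and between the mutants Sept2 was -0.0350 and Ralb -0.0352. Leaving out 1 library gave, in RalA cKO, Sept2 from -0.162 to 0.122, Sept7 from -0.0412 to 0.188, Sept9 from -0.0979 to 0.110 and Sept7-202 from -0.196 to 0.0354. It gave, in RalAB cKO against control, Sept2 from -0.120 to 0.161, Sept2-216 from -0.158 to 0.0938 and Rtkn from -0.00796 to 0.179, and between the mutants Sept2 from -0.0344 to 0.127, Sept6 from -0.368 to 0.0127 and Ralb from -0.0319 to 0.0997.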
